A study of Rattus norvegicus with 7 samples.

Results

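The genes of myostatin, activin, bone morphogenetic protein (BMP) and transforming growth factor beta (TGF-beta) signalling were examined in the thyroarytenoid muscle, the muscle that forms the body of the vocal fold. Members were chosen by symbol, from patterns for the ligands, receptors, Smad and Smurf proteins, latency proteins and secreted antagonists. The patterns were set with earlier results of these data known, and 59 of the 14702 genes in the authors' deposited table matched. No symbol was repeated among them. RNA sequencing compared 3 Pink1-/- rats, which carry a homozygous knockout of the mitochondrial kinase gene Pink1, with 4 wild type (WT) rats. All 7 were female Long Evans rats aged 8 months, each gave 1 library, and no treatment is named in the labels. The labels do not say how the knockout was made or whether the 2 genotypes shared litters.

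Ligands of this superfamily are secreted as dimers that bring together type I and type II serine/threonine kinase receptors on the cell surface. The activated type I receptor phosphorylates Smad2 and Smad3 after myostatin, activin or TGF-beta, and Smad1, Smad5 and Smad9 after BMPs. These receptor-activated Smads join Smad4 and enter the nucleus. In skeletal muscle, myostatin restrains fibre growth while BMP signals favour it, and TGF-beta is known for driving fibrosis. Extracellular antagonists such as follistatin and noggin bind ligands, and most latent TGF-beta binding proteins anchor the latent TGF-beta complex in the matrix.

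All fold changes, likelihood ratios and adjusted p-values are the authors', from what their deposited table calls an edgeR GLM of Pink1-/- against WT, and a positive log2 fold change means a higher value in Pink1-/-. The table gives 1 fold change and 1 mean abundance per gene. Single rats' values were not analysed here. The spread between animals, the overlap of the groups and the depth of each library are therefore unknown. Levels are given as implied counts scaled to a common library total (CPM) for each genotype, worked out from each gene's fold change and mean CPM. CPM are not divided by transcript length, so levels were compared between genotypes, for 1 gene or for the sum over a list, and not between genes. Such sums follow the genes with the most reads. An implied standard error (SE) and 95% interval came from the fold change and its likelihood ratio. The threshold of a call was an adjusted p of 0.05, and "rose" or "fell" is used only of called genes.

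Pink1 itself, the targeted gene, stood at 8.94 CPM in Pink1-/- and 269 CPM in WT muscle. Of the 59 members, 1 was called, the follistatin-like gene Fstl5, which fell, and none rose. The called share was 1.69% of members, against 3.05% of all 14702 genes in the authors' deposited table. In the lower direction the share of all genes was 1.68%, and in the higher direction 1.37%. At an unadjusted p under 0.05, 10 members qualified, 3 with higher and 7 with lower values in Pink1-/- muscle. That was 16.9% of members, next to 17.0% of all genes, 9.04% higher and 7.99% lower. By direction, 5.08% of members qualified as higher and 11.9% as lower. Over both directions together, neither share of the members exceeded that of all genes.

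Fold changes of the members lay mostly a little below 0. Values were below 0 in 40 members and above 0 in 19, so 67.8% were lower in Pink1-/- muscle, compared with 52.0% of all genes. The median log2 fold change was -0.18 over the members and -0.02 over all genes. Without Fstl5, the other 58 ran from -1.68 to 0.95, all uncalled. The implied 95% interval held 0 in 49 of the 59 members. It lay wholly within a 2-fold difference in either direction in 29 members, and in the other 30 a difference of 2-fold or more was within the interval. The median implied SE was 0.32 for members and 0.27 for all genes.

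**Figure D1:**
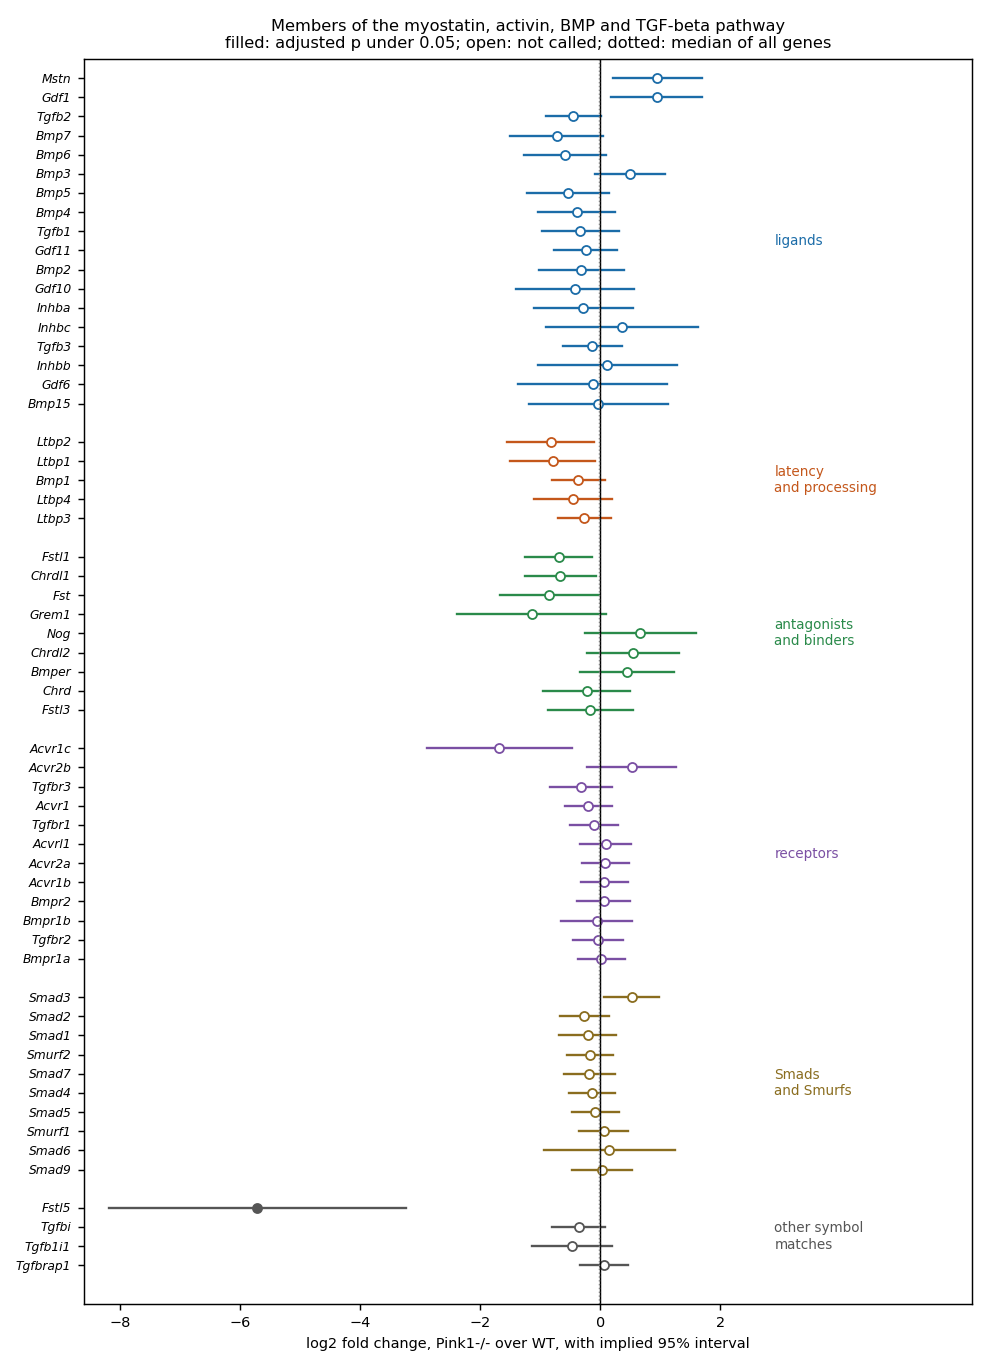
Log2 fold change of Pink1-/- over WT (x axis) for 58 of the 59 members (rows, grouped by role and ordered by p), with lines for the implied 95% interval and filled points for an adjusted p under 0.05. Fstl5 at -5.71 is the single filled point, and 48 of the 58 intervals cross 0.

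Scaling between libraries bears on every direction given here. Summed over all genes, implied CPM was 1093202 in Pink1-/- and 944526 in WT muscle, a log2 difference of 0.21. Scaling that made these sums equal would lower each log2 fold change by 0.21 and move the median of all genes to -0.23. The members' median became -0.39, 9 were above 0 and 50 below, and 3 were called, all lower: Fstl5, Acvr1c and Fstl1. Over all genes, 63 were then called higher and 568 lower, in place of 201 higher and 247 lower. The shift is the same for every gene, so the distance between the members' median and that of all genes does not depend on it.

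Fold changes ran in opposite directions in muscle fibre genes and connective tissue genes, and their values are given here for use beside the members. All 11 measured of 12 skeletal muscle fibre markers had values above 0, with a median log2 fold change of 0.84, among them Des, the intermediate filament desmin (1.01), and Myoz1, a Z-disc protein of fast fibres (0.86), in the authors' deposited table. Their summed implied level was 96843 CPM in Pink1-/- and 55496 CPM in WT muscle, and none was called. All 10 measured of 11 fibroblast and connective tissue markers had values below 0, with a median of -0.57 and a summed level of 4164 CPM in Pink1-/- and 6078 CPM in WT muscle. Among them only the surface glycoprotein gene Thy1 fell, with a log2 fold change of -1.73 at adjusted p 0.00419 in the authors' deposited table. The other 9 were not called, the lowest of them Fbln1 at -0.66, and Pi16, of adventitial fibroblasts, stood at -0.62. Markers of squamous epithelium (median -1.25 over 12) and of Schwann cells and nerve (median -1.30 over 11) were below 0 throughout, and Krt13 (-1.30) and Dsc3 (-2.35) of the squamous list fell in the authors' deposited table. Endothelial (0.22 over 9), smooth muscle (0.18 over 10) and macrophage (0.20 over 10) markers had small positive medians, of which those of smooth muscle and macrophages went below 0 under scaling to equal summed CPM. Markers of cartilage had a median of -0.52 over 7. Respiratory epithelium and gland markers had a median of -0.58 over 11 and a summed level of 5803 CPM in Pink1-/- and 13541 CPM in WT muscle. Of these, 3 fell, Tff2 (-8.92), Bpifb1 (-5.68) and Lcn2 (-4.39) in the authors' deposited table. The list also had 2 genes above 0, Bpifa1 (2.32) and Scgb1a1 (0.49), neither called. Most of the WT sum came from Muc5b (-4.08, not called), with 633 CPM in Pink1-/- and 10735 CPM in WT muscle. Bpifa1 held 4714 CPM in Pink1-/- and 944 CPM in WT muscle. Thyroid markers had a median of 0.83 over 4, and Tg, thyroglobulin, rose by 2.50 on the log2 scale in the authors' deposited table. Implied CPM cannot be 0 by the way it was worked out, so whether single rats had no reads of a marker is unknown. In a bulk sample, fewer cells of a type and less RNA per cell cannot be told apart, and the part of cell makeup in the members' values was not tested.

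**Figure D2:**
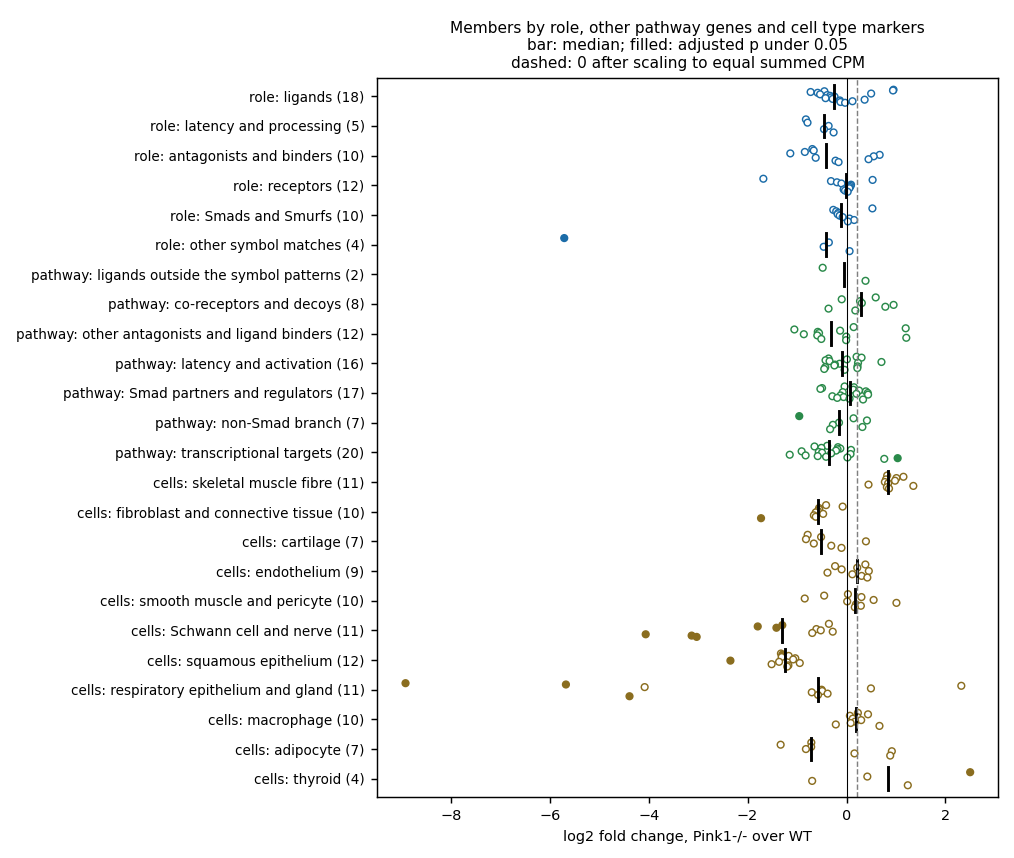
Log2 fold change of Pink1-/- over WT (x axis) for the members by role (blue), the other pathway genes (green) and the markers of cell types (brown), with the number of genes in brackets and a bar at each median. Receptors (median -0.0048) and Smads (median -0.11) sit close to 0 as deposited, while muscle fibre markers (median 0.84) and fibroblast markers (median -0.57) lie on opposite sides.

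Among the ligands none was called, 2 had an unadjusted p under 0.05, and the smallest p belonged to myostatin. Of the 18 ligands, 5 had values above 0 and 13 below, with a median log2 fold change of -0.26. Mstn (ENSRNOG00000021294) encodes myostatin, which muscle fibres secrete and which limits muscle mass. Its implied level was 260 CPM in Pink1-/- and 135 CPM in WT muscle, 1.93-fold, and the authors' deposited table gives a log2 fold change of 0.95 at adjusted p 0.152. The implied interval ran from 0.21 to 1.69, which does not hold 0. Under scaling to equal summed CPM the Mstn value became 0.74 at adjusted p 0.225. As deposited, the Mstn value is close to the median of 0.84 of the muscle fibre markers in the same comparison.

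Gdf11, the closest relative of myostatin, lay on the other side of 0. It stood at 9.48 CPM in Pink1-/- and 11.2 CPM in WT muscle, and the authors' deposited table gives a log2 fold change of -0.24 at adjusted p 0.711. Gdf1, a ligand known from left-right patterning of the embryo, had 8.00 CPM in Pink1-/- and 4.17 CPM in WT muscle, and the authors' deposited table gives a log2 fold change of 0.94 at adjusted p 0.169. Under scaling to equal summed CPM the Gdf1 value became 0.73 at adjusted p 0.242. Gdf1 overlaps Cers1 and Upf1 in the RefSeq annotation of the rat, so its reads may be shared and its value is uncertain. Activin subunit genes had few reads. Inhba had 2.20 CPM in Pink1-/- and 2.68 CPM in WT muscle, Inhbb had 1.80 CPM in Pink1-/- and 1.65 CPM in WT muscle, and Inhbc had 1.15 CPM in Pink1-/- and 0.891 CPM in WT muscle. Their log2 fold changes were -0.28, 0.12 and 0.37, with implied SEs from 0.42 to 0.64, so a 2-fold difference in at least 1 direction lay within each interval.

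BMP ligands were lower in 8 of 9 cases, again with no call. Bmp7, a ligand that enlarges muscle fibres in mice when overexpressed, had 11.6 CPM in Pink1-/- and 19.2 CPM in WT muscle, and the authors' deposited table gives a log2 fold change of -0.73 at adjusted p 0.341. Bmp6 (-0.59), Bmp5 (-0.54), Gdf10 (-0.43), Bmp4 (-0.39), Bmp2 (-0.31), Gdf6 (-0.12) and the oocyte ligand Bmp15 (-0.03) also had log2 fold changes below 0 in the authors' deposited table. Bmp3, which antagonizes other BMPs in bone, was the exception at 0.50 (adjusted p 0.399, the authors' deposited table). Summed over the 9 genes, implied levels were 76.8 CPM in Pink1-/- and 99.7 CPM in WT muscle. The interval of each held 0.

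The 3 TGF-beta ligand genes had small values below 0. Tgfb2 had 22.5 CPM in Pink1-/- and 30.6 CPM in WT muscle, and the authors' deposited table gives a log2 fold change of -0.45 at adjusted p 0.306. Tgfb1, the isoform best known in fibrosis, had 5.09 CPM in Pink1-/- and 6.40 CPM in WT muscle (-0.33). Tgfb3 had 57.9 CPM in Pink1-/- and 63.6 CPM in WT muscle (-0.13, adjusted p 0.843 in the authors' deposited table). All 3 intervals lay within a 2-fold difference.

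**Figure D3:**
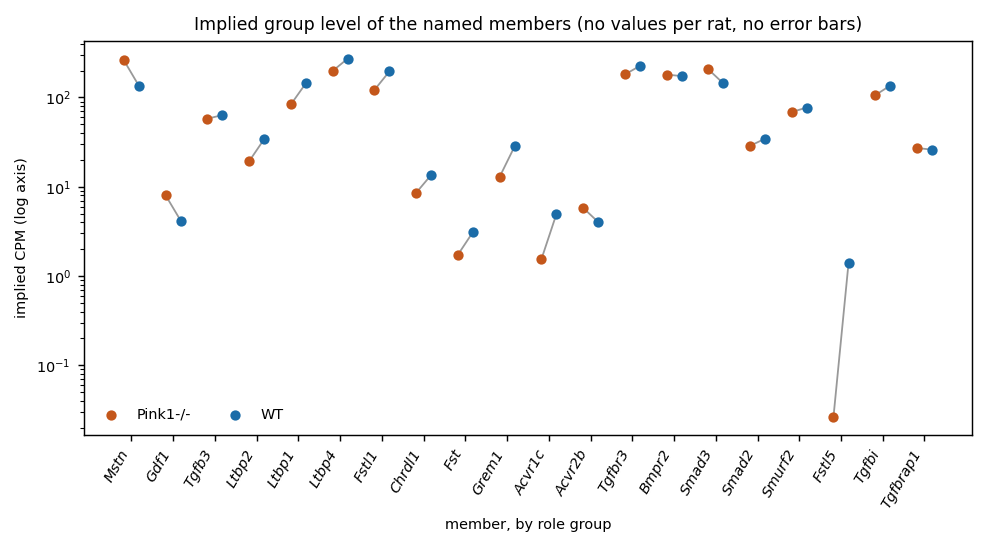
Implied CPM (log axis) of the 20 named members in Pink1-/- (orange, left) and WT (blue, right) muscle, 1 value per genotype with no error bar. Mstn (260 against 135) and Smad3 (207 against 144) stand higher in Pink1-/-, Ltbp1 (83.7 against 145) and Fstl1 (121 against 196) lower, and Fstl5 is near 0 in Pink1-/-.

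Latency and processing genes had values below 0 in 5 of 5 cases, with a median log2 fold change of -0.46, no call and 2 genes at an unadjusted p under 0.05. Ltbp1, Ltbp3 and Ltbp4 encode proteins that bind the latent TGF-beta complex and anchor it to fibrillin in the matrix, whereas Ltbp2 is a fibrillin-binding member that does not bind latent TGF-beta. Ltbp2 had 19.3 CPM in Pink1-/- and 34.2 CPM in WT muscle, and the authors' deposited table gives a log2 fold change of -0.82 (implied interval -1.55 to -0.10) at adjusted p 0.216. Ltbp1 had 83.7 CPM in Pink1-/- and 145 CPM in WT muscle, and the authors' deposited table gives a log2 fold change of -0.79 (implied interval -1.50 to -0.08) at adjusted p 0.227. These were the only members of the group whose interval did not hold 0. Ltbp4 had 198 CPM in Pink1-/- and 272 CPM in WT muscle (-0.46, adjusted p 0.510 in the authors' deposited table). Ltbp3 stood at -0.26, and Bmp1, a protease that cleaves procollagens and chordin, at -0.36 in the authors' deposited table. The Ltbp3 value is uncertain, since its reads may be shared. Summed over the 5 genes, implied levels were 399 CPM in Pink1-/- and 573 CPM in WT muscle. The log2 ratio of these sums was -0.52, and that of the fibroblast marker sums was -0.55. Each rests on few genes, Ltbp4 in the latency sums and, in the fibroblast sums, Gsn and Dcn. Gsn had 1761 CPM in Pink1-/- and 2712 CPM in WT muscle, and Dcn 1133 CPM in Pink1-/- and 1666 CPM in WT muscle. A shared source of the 2 ratios was not tested.

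Promoters of Ltbp1 and Ltbp2 are shown because this pair had the largest values of the latency group and both lay on the same side. Each sequence covers 250 bases before and 50 after the annotated start, on the minus strand of the GRCr8 assembly from RefSeq, at chr6:26177252-26177551 for Ltbp1 and chr6:110257249-110257548 for Ltbp2. Capitals mark the 5-base Smad box, searched as CAGAC and, for the other strand, GTCTG.
Ltbp1: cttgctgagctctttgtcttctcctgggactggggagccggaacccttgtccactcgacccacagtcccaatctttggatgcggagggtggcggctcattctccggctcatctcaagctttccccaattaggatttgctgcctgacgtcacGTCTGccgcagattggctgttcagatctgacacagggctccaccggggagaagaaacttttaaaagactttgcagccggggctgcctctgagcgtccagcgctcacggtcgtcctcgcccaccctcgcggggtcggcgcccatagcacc
Ltbp2: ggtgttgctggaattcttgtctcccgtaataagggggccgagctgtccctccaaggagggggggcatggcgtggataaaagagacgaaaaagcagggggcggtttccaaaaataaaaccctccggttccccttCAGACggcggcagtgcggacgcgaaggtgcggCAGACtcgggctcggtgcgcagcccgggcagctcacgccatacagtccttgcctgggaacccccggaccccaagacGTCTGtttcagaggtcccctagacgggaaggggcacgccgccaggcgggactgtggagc
The Ltbp1 window holds 1 such match and the Ltbp2 window 3, and neither window holds an E-box (CANNTG). The windows of Ltbp3 and Ltbp4 hold no match to the Smad box. Promoters of 45 members were found in the table, and 16 of their 47 windows held the box (34.0%), compared with 50.1% of all 33469 promoters, so a match is common and describes letters only. The BMP-associated motif GGCGCC was present in 40.4% of member windows and 11.0% of all promoters, and the E-box in 44.7% of member windows and 72.1% of all promoters. Base composition differs between promoters and was not matched here.

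Among the 10 antagonists and ligand binders, 7 had values below 0 and 3 above, with none called and 3 at an unadjusted p under 0.05. Their median log2 fold change was -0.42. Fstl1, a secreted glycoprotein of connective tissue that binds BMP4, had 121 CPM in Pink1-/- and 196 CPM in WT muscle. In the authors' deposited table its log2 fold change was -0.69 (implied interval -1.25 to -0.14) at adjusted p 0.167, and it was called lower under scaling to equal summed CPM (adjusted p 0.0400). Chrdl1, a chordin-like BMP binder, had 8.56 CPM in Pink1-/- and 13.6 CPM in WT muscle, and the authors' deposited table gives a log2 fold change of -0.66 at adjusted p 0.228. Fst, follistatin, the main extracellular inhibitor of myostatin and activin, had 1.73 CPM in Pink1-/- and 3.11 CPM in WT muscle. The fold change of Fst on the log2 scale was -0.84 (implied interval -1.67 to -0.02) at adjusted p 0.280 in the authors' deposited table. Fst and Mstn thus had values on opposite sides of 0, neither of them called.

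Grem1, gremlin 1, a BMP antagonist made by stromal cells, had the lowest fold change of the group and a wide error. It had 12.9 CPM in Pink1-/- and 28.3 CPM in WT muscle, and the authors' deposited table gives a log2 fold change of -1.14 (implied SE 0.63) at adjusted p 0.353. Noggin (Nog, 0.67), Chrdl2 (0.55) and the BMP modulator Bmper (0.44) had log2 fold changes above 0 in the authors' deposited table, all at implied levels under 5 CPM in both genotypes. Chordin (Chrd, -0.22) and Fstl3 (-0.16), a follistatin relative that also binds myostatin, were closest to 0.

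As deposited, most receptor genes had fold changes close to 0. Of the 12 receptors, 6 had values above 0 and 6 below, the median log2 fold change was -0.0048, none was called and 1 had an unadjusted p under 0.05. Under scaling to equal summed CPM, 1 was above 0 and 11 below, with a median of -0.22. For 10 of the 12, all but Acvr1c and Acvr2b, the interval lay within a 2-fold difference. The type II receptors of myostatin and activin had values above 0, of which that of Acvr2a, like that of the type I receptor Acvr1b, went below 0 under scaling to equal summed CPM. Acvr2a had 64.8 CPM in Pink1-/- and 61.2 CPM in WT muscle (0.08), and Acvr2b had 5.82 CPM in Pink1-/- and 4.04 CPM in WT muscle (0.53, adjusted p 0.504 in the authors' deposited table). Acvr1b stood at 0.07 with an interval from -0.33 to 0.46. Acvr2a overlaps Orc4 in the RefSeq annotation.

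Acvr1c, a type I receptor for activin B and nodal known mainly from adipose tissue, lay farthest from 0 of the 12 receptors. It had 1.54 CPM in Pink1-/- and 4.93 CPM in WT muscle, 3.21-fold lower, which is -1.68 on the log2 scale (implied interval -2.89 to -0.48). The authors' deposited table lists it at adjusted p 0.109, which became 0.0493 when summed CPM was made equal. Of 7 measured of 8 adipocyte markers, 4 were below 0 and 3 above, with a median of -0.71 and none called. Their summed level was 196 CPM in Pink1-/- and 115 CPM in WT muscle, a sum in which Fabp4, which endothelium also expresses, held 156 CPM in Pink1-/- and 82.5 CPM in WT muscle. Lipe, hormone-sensitive lipase, stood at 0.88 and Plin1, of the lipid droplet surface, at -1.33 in the authors' deposited table. Plin1 was named after its value was seen. The part of fat tissue in the Acvr1c value was not tested.

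The implied intervals of all 5 BMP and all 3 TGF-beta receptors lay within a 2-fold difference. Bmpr2, the BMP type II receptor, had 181 CPM in Pink1-/- and 174 CPM in WT muscle. Its log2 fold change was 0.06 (implied interval -0.38 to 0.49) and became -0.15 with summed CPM made equal. The type I receptors Bmpr1a (0.02), Bmpr1b (-0.06), Acvr1 (-0.19) and Acvrl1 (0.09), an endothelial receptor, were similar in size in the authors' deposited table. Tgfbr1 stood at -0.10 and Tgfbr2 at -0.03, with intervals from -0.50 to 0.30 for Tgfbr1 and from -0.45 to 0.38 for Tgfbr2. Tgfbr3, betaglycan, a co-receptor that presents TGF-beta, had 181 CPM in Pink1-/- and 225 CPM in WT muscle (-0.32, adjusted p 0.590 in the authors' deposited table).

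Of the 10 Smad and Smurf genes none was called, 1 had an unadjusted p under 0.05, the median log2 fold change was -0.11 (-0.32 under scaling to equal summed CPM), and 9 had intervals within a 2-fold difference. Smad3, a transducer of myostatin, activin and TGF-beta signals, had 207 CPM in Pink1-/- and 144 CPM in WT muscle. In the authors' deposited table its log2 fold change was 0.52 (implied interval 0.06 to 0.98) at adjusted p 0.218. The Smad3 value became 0.31 at adjusted p 0.427 under scaling to equal summed CPM. Smad2, the partner of Smad3 on the same branch, lay on the other side of 0, with 28.7 CPM in Pink1-/- and 34.6 CPM in WT muscle (-0.27, adjusted p 0.550 in the authors' deposited table). The BMP branch transducers Smad1 (-0.21), Smad5 (-0.08) and Smad9 (0.03) and the common partner Smad4 (-0.14) were near 0 in the authors' deposited table. So were the inhibitory Smad7 (-0.18) and Smad6 (0.15), though Smad6 averaged only 0.41 log2 CPM and its interval reached 1.24. The ubiquitin ligases Smurf1 (0.06) and Smurf2 (-0.17), which target Smads and receptors for breakdown, did not stand out either.

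Fstl5 was the called member, and its name comes from sequence likeness to follistatin; no role in this pathway is assigned to it here. It had 0.0266 CPM in Pink1-/- and 1.39 CPM in WT muscle, and the authors' deposited table gives a log2 fold change of -5.71 (implied interval -8.18 to -3.24) at adjusted p 0.00113. Its mean log2 CPM, which reflects reads and not a level per length, was the lowest of the 59 members at -0.31, and a fold change of a gene this close to 0 depends on the prior count of the fit and is no bound. The call ended when the likelihood ratio was divided by its median excess (adjusted p 0.229) or read as F (0.623), and the gene is removed by a minimum mean log2 CPM of 0. The nerve marker Nefl, a neurofilament, fell in the same comparison, with a log2 fold change of -4.06 in the authors' deposited table. In all, 6 of the 11 Schwann cell and nerve markers fell, and their summed level was 307 CPM in Pink1-/- and 546 CPM in WT muscle. The part of nerve tissue in the Fstl5 value was not tested.

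The other symbol matches outside the core pathway were not called. Tgfbi, a matrix protein induced by TGF-beta, had 106 CPM in Pink1-/- and 136 CPM in WT muscle (-0.36, adjusted p 0.421 in the authors' deposited table). Tgfb1i1, a focal adhesion adaptor, stood at -0.46, and Tgfbrap1, a receptor-associated protein, at 0.06, or -0.15 with summed CPM made equal.

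**Figure D4:**
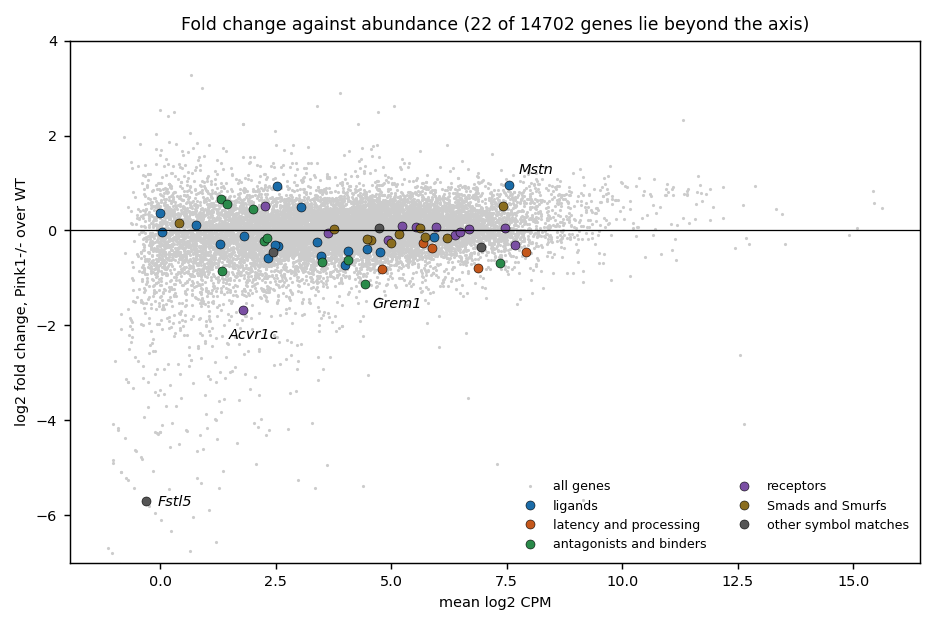
Log2 fold change of Pink1-/- over WT (y axis) against mean log2 CPM (x axis) for all 14702 genes (grey; 22 lie beyond the axis) and the 59 members coloured by role. Fstl5 lies at low mean CPM among the steeply lower genes, and Acvr1c, Grem1 and Mstn are labelled as members farther from 0.

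By branch, values in the myostatin and activin group were spread around 0 while those of TGF-beta lay below it. Of 12 myostatin and activin genes (ligands, receptors and their antagonists), 7 were above 0, with a median log2 fold change of 0.07 that became -0.14 under scaling to equal summed CPM. All 10 TGF-beta genes, counting the latent binding proteins, were below 0 with a median of -0.32. Ltbp2, which does not bind latent TGF-beta, is counted among them by family. Among 25 BMP genes 17 were below 0, and the median was -0.19. No gene of these 3 branches was called, and differences between the branches were not tested.

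The pathway was followed beyond the symbol patterns with 93 other listed genes, of which 81 were measured. Of these, 1 rose and 1 fell, 2.47% against 3.05% of all genes, and the median log2 fold change was -0.10. Map3k7, the TAK1 kinase that carries non-Smad signals from TGF-beta and BMP receptors, fell to 14.3 CPM in Pink1-/-, against 27.8 CPM in WT muscle. In the authors' deposited table its log2 fold change was -0.96 (implied interval -1.47 to -0.44) at adjusted p 0.0180. The other 6 genes of the non-Smad list were not called, among them its adaptors Tab1 (0.14) and Tab2 (0.41) in the authors' deposited table. Fbxo32, a muscle atrophy ubiquitin ligase, rose by 1.03 on the log2 scale (adjusted p 0.00811, the authors' deposited table), to 311 CPM in Pink1-/-, against 152 CPM in WT muscle. Both calls ended when the likelihood ratio was divided by its median excess or read as F, and under Benjamini-Yekutieli adjustment. The non-Smad list had a median of -0.15 over 7 genes.

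Transcriptional targets of the pathway were otherwise not called. Of 21 listed, 20 were measured, 15 had values below 0, and the median was -0.35. At an unadjusted p under 0.05, 6 of the 20 qualified, 2 with higher and 4 with lower values. That was 30% of the list, next to 17.0% of all genes. Those higher were Fbxo32 and Trim63 (0.76), and those lower were Cdkn2b (-1.15), Snai2 (-0.91), Junb (-0.83) and Tgif1 (-0.50). The 4 Id genes, direct targets of BMP Smads named after their values were seen, had log2 fold changes of -0.39 (Id1), -0.65 (Id2), -0.17 (Id3) and -0.51 (Id4) in the authors' deposited table, and the implied interval of each held 0. Ccn2 (-0.18 in the authors' deposited table), a target of TGF-beta Smads also named after its value was seen, had an interval within a 2-fold difference. Col1a1, which is also in the fibroblast list, stood at -0.41 in the authors' deposited table.

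Other ligand binders (median -0.32 over 12 genes) and co-receptors (0.29 over 8) included genes on both sides of 0, none called. Wfikkn2, a secreted protein that binds myostatin and Gdf11, had 7.13 CPM in Pink1-/- and 3.11 CPM in WT muscle, and the authors' deposited table gives a log2 fold change of 1.20 at adjusted p 0.0553. With summed CPM made equal, the Wfikkn2 value became 0.98 at adjusted p 0.103. Hjv, hemojuvelin, a BMP co-receptor of skeletal muscle and liver, had 375 CPM in Pink1-/- and 194 CPM in WT muscle, and the authors' deposited table gives a log2 fold change of 0.95 at adjusted p 0.0588. That of Hjv became 0.74 at adjusted p 0.131 under the same scaling. Bgn, biglycan, a matrix proteoglycan that binds TGF-beta, was named after its value was seen. It had 69.4 CPM in Pink1-/- and 126 CPM in WT muscle, and the authors' deposited table gives a log2 fold change of -0.86 at adjusted p 0.0812. It was called lower under scaling to equal summed CPM (adjusted p 0.0155). Itgb6, an integrin subunit of epithelia that activates latent TGF-beta, was also named after its value was seen and lay on the other side of 0. It had 142 CPM in Pink1-/- and 86.9 CPM in WT muscle, and the authors' deposited table gives a log2 fold change of 0.71 at adjusted p 0.0834, which became 0.49 at adjusted p 0.207 under scaling to equal summed CPM. Like Mstn, Wfikkn2 and Hjv had values on the same side as the muscle fibre markers, and Bgn lay with the fibroblast markers. Itgb6 lay opposite to all 12 squamous epithelium markers and to 9 of 11 respiratory epithelium and gland markers. The part of cell makeup in these 4 values was not tested. The 16 genes of latency and activation had a median of -0.09, the 17 Smad partners and regulators 0.06, below 0 under scaling to equal summed CPM, and the 2 further ligands -0.05, with no call among them.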

How the data were processed

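RNA sequencing libraries of the thyroarytenoid muscle were made from total RNA with an Illumina TruSeq kit, per the labels' protocols. RSEM and edgeR 3.9 are named in the submitters' processing notes, with no role given. Not given in the sources used here are the aligner, genome build, annotation, strand setting, low-count filter and scaling. The table deposited by the authors has 14702 genes and, per the file headers, columns for log2 fold change, mean log2 CPM, the score of a likelihood ratio test, its p-value, an adjusted p-value and a status. The deposited p-values match the chi-square tail with 1 degree of freedom, and the deposited status matches an adjusted p of 0.05 in all 14702 genes. Counts per library were not analysed here, so depth and the planned per-library fit could not be used. Replicates are separately numbered rats, but their spread enters only through the authors' p-values.

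From the table, the implied SE was the size of the log2 fold change over the root of its likelihood ratio, and the 95% interval used the normal quantile. Implied CPM assumed equal weight for each library. These steps were tested on simulated data. Python 3.11.15, numpy 2.4.6, pandas 2.3.3, scipy 1.17.1 and matplotlib 3.10.9 were used.

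Members, the 7 lists of other pathway genes and the 11 marker lists were chosen with earlier results of these data known, and members were assigned to roles and branches by hand. Members named in full by rule were those called, those with an unadjusted p under 0.05 and, in each of the 6 role groups, the 2 with the smallest p and the 2 with the highest mean CPM. Some others, among them Gdf11, Bmp7, Bmp3 and Tgfb2, were given with CPM or an adjusted p outside this rule, with their values known. From the other pathway genes, the called ones and the 4 with the smallest p were named. Transcriptional targets with an unadjusted p under 0.05 were named too, with their values known. Older names matched 3 list entries. Promoters came from a RefSeq table of GRCr8 and were matched by symbol. That assembly was otherwise used only for names and overlaps between genes. A few genes are not reported here by name, though they count in the totals.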

Additional observations from a re-analysis of the deposited data

How the results depend on the processing

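As deposited, 1 member was called, lower. Scaling to equal summed CPM gave 3, all lower. No member was called with a minimum mean log2 CPM of 0 or 1, which removes Fstl5, with the 54 core pathway members alone, with the likelihood ratio divided by its median excess of 1.96, or with it read as F with 1 and 5 degrees of freedom. In those settings 14320 and 13076 genes were tested under the 2 minimums, 14 genes of the whole table were called with the divided ratio and 0 with F, where 1055 genes and 2 members kept an unadjusted p under 0.05. F discards the information edgeR shares between genes, and Pink1 itself was then not called. Benjamini-Yekutieli adjustment and an adjusted p under 0.1 each gave 1 member, with 127 and 773 genes called over the whole table in place of 448. Of the 81 other pathway genes, 2 were called as deposited, 0 with the divided ratio, with F and with Benjamini-Yekutieli adjustment, and 6 at an adjusted p under 0.1. Of the 19 members above 0, 9 stayed above under equal summed CPM. Among those that changed sign, Bmpr2 and Tgfbrap1 each came to -0.15. The median of the members ran from -0.39 to -0.16 over the alternatives. Leaving out each replicate needs values per library and was not run. No paired analysis was possible because the comparison comes as 1 deposited fold change per gene and the rats' numbers are not shared between genotypes. Depth is unknown here. A difference of 2-fold or more lay within the implied interval of 30 members.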
